A study of Saccharomyces cerevisiae with 16 samples.

Results

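Molecular chaperones of the yeast cytosol fold new proteins, keep others from clumping and refold those damaged by heat. The Hsp70 proteins Ssa1 to Ssa4 bind exposed stretches of unfolded protein in a cycle driven by ATP. J-domain proteins (Ydj1, Sis1) bring them clients and start ATP hydrolysis, and Sse1, an Hsp110, exchanges their nucleotide. Hsp90 (Hsc82 and Hsp82) matures kinases and receptors handed over by Hsp70, and the disaggregase Hsp104 pulls proteins out of aggregates. Budding yeast keeps constitutive and inducible copies of several of these genes: SSA2 and HSC82 are abundant in growing cells, SSA1 is expressed in growth and further raised by heat, and SSA3, SSA4, HSP82 and HSP104 are known for their rise under stress. Heat shock factor Hsf1 drives many of these genes, and Msn2 and Msn4, which act in the general stress response, drive part of them.

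The 10 genes SSA1, SSA2, SSA3, SSA4, SSE1, HSC82, HSP82, HSP104, SIS1 and YDJ1 were taken by symbol from 5449 Saccharomyces cerevisiae genes measured on Affymetrix Yeast Genome 2.0 arrays. Each is represented by 1 probe set. All 10 passed a filter that left out the lowest 20% of genes by mean signal, after which 4359 genes were tested. SSA3 was the one member that a 40% filter would have removed. SSA3, SSA4, HSP82 and HSP104 are called inducible here and the other 6 genes constitutive, from textbook knowledge.

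The strains are MATalpha W303 derivatives carrying tor1-1, a disrupted FPR1, RPL13A fused to FKBP12 and TAF4 fused to FRB. In this anchor-away design rapamycin ties the FRB-tagged protein to a ribosomal protein that is exported from the nucleus; here it targets Taf4, a subunit of the general transcription factor TFIID. A culture was split, rapamycin (1 µg/mL per the protocol, 5 µM per the design text) was given for 30 min to one portion and its solvent DMSO to the other, and 4-thiouracil (5 mM) was added for 6 min. The 4 groups used are newly synthesized RNA with rapamycin, newly synthesized RNA with DMSO, steady-state RNA with rapamycin and steady-state RNA with DMSO, with 2 arrays each. Newly synthesized RNA is the thiolated RNA purified from the total, and the steady-state sample is the total itself. Labelled Schizosaccharomyces pombe cells, mixed at 1 part to 3 parts of S. cerevisiae, served as spike-in. The protocol names no rapamycin for those S. pombe cells. No strain without an FRB tag was treated, so effects of rapamycin itself and of Taf4 removal cannot be told apart. Whether replicates came from separate cultures is not in the labels, so p-values cover only the spread of these arrays, which may be technical.

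Of 16 deposited columns, 6 of the 8 titled Taf5 equalled a Taf4-titled column divided by 5 to within 0.001 signal units, each time under the other fraction label. The Taf5-titled samples also list the TAF4-FRB genotype. Which of the 2 fraction labels of such a scan is right was not tested, so "newly synthesized" and "steady-state" below are the Taf4-titled labels, and no Taf5-titled column entered a fit. Genes specific to alpha cells were bright in all 8 arrays (MF(ALPHA)1 13.1 and SAG1 11.56, mean log2 signal) and those of a cells dim (4.34 for STE2 to 5.74 for STE6), as the MATalpha label states. TAF4 mRNA was 2.54-fold lower with rapamycin in newly synthesized RNA and 2.83-fold lower in steady-state RNA, which says nothing of the nuclear protein.

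Signals are log2 intensities after each array was shifted to an equal S. pombe median. On this scale a lower signal from fewer S. cerevisiae cells per spike-in cell cannot be told apart from less RNA per cell. A change is the log2 signal with rapamycin minus that with DMSO, tested by limma with Benjamini-Hochberg adjustment over 4359 genes, and a call is an adjusted p under 0.05. Errors of changes are model SEs.

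The question of the first comparison is how newly synthesized chaperone RNA changed when Taf4 was targeted. Of the 10 genes 6 fell and 1 rose, and 3 did not pass. Among all genes 79.4% fell and 1.79% rose, with a median change of -0.78. SSA4 rose 2.07-fold, while HSP104, another inducible gene, had a positive change that did not pass. SSA3, HSP82, SSE1, SIS1, YDJ1 and SSA2 fell, by 1.41-fold for SSA2 to 1.92-fold for YDJ1; with equal S. cerevisiae medians the changes of SSA2, HSP82, SSE1 and SIS1 were above 0, while SSA3 had -0.018 (adjusted p = 0.923) and YDJ1 -0.117 (adjusted p = 0.507), so that neither passed. In steady-state RNA 8 of the 10 genes fell and 0 rose by limma, against 86.8% lower and 1.42% higher among all genes, whose median change was -1.17. At an unadjusted p under 0.05 no member was higher there either. Over all genes 3462 fell and 78 rose in newly synthesized RNA, against 389 and 679 with equal S. cerevisiae medians and 2114 and 188 as deposited. In steady-state RNA 3785 fell and 62 rose, against 787 and 1393 with equal medians and 2977 and 259 as deposited.

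**Figure D1:**
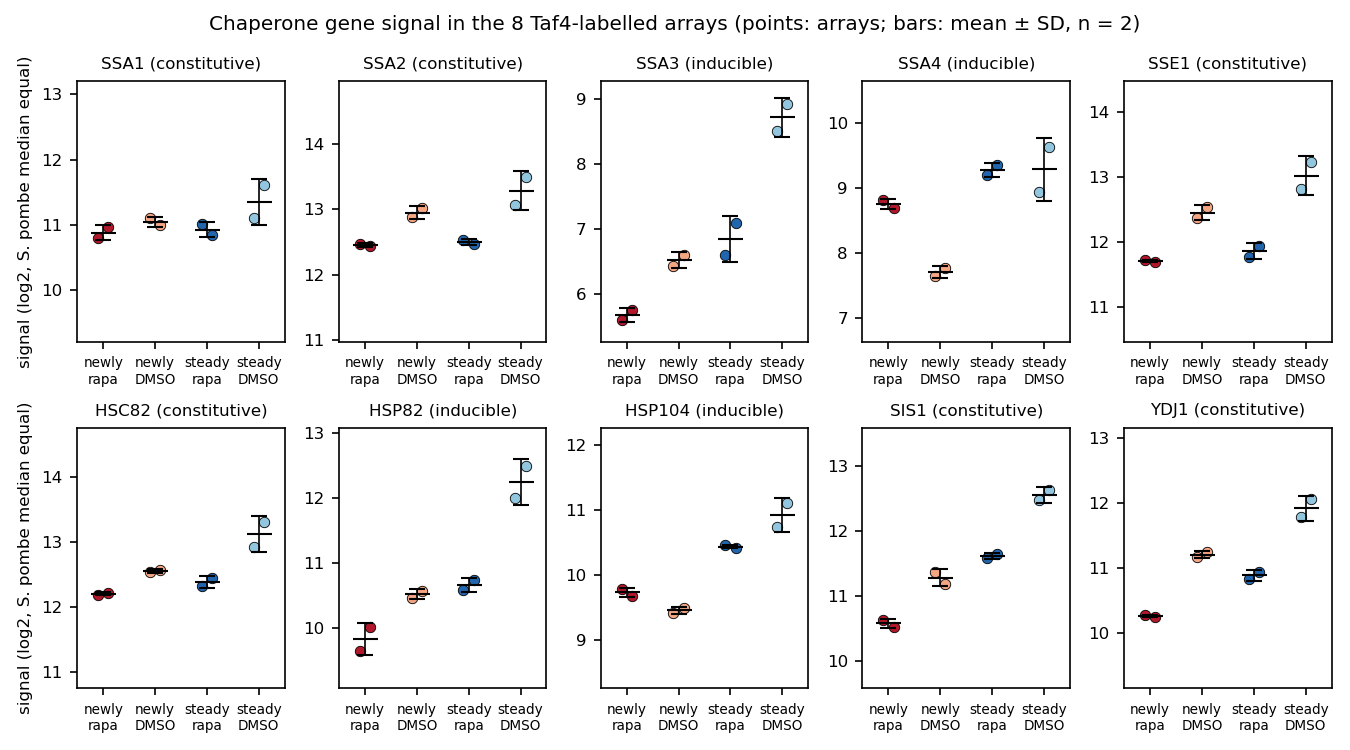
Signal of the 10 chaperone genes (log2 intensity, S. pombe median made equal; every panel spans 4 log2 units) in the 8 Taf4-labelled arrays, with groups on the horizontal axis (rapa, rapamycin). Points are arrays, bars mean ± SD (n = 2). SSA4 lies higher with rapamycin than with DMSO in newly synthesized RNA, at 8.81 and 8.70 against 7.64 and 7.77, while SSA3 (8.50 and 8.92) and HSP82 (11.995 and 12.50) are highest in steady-state RNA with DMSO.

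SSA4 (YER103W, chromosome V, 364589 to 366517 in assembly R64) encodes the Ssa protein known for strong heat induction. Its log2 signal in newly synthesized RNA was 8.81 and 8.70 with rapamycin and 7.64 and 7.77 with DMSO. Both rapamycin arrays lay above both DMSO arrays. The change was 1.05 (SE 0.23, n = 2 per group, limma adjusted p = 0.000187), the 26th highest of 4359 genes and 1.83 above the median gene. It passed under each scaling, filter, model and left-out array tried. In steady-state RNA the signals were 9.20 and 9.35 with rapamycin and 8.94 and 9.63 with DMSO, so the groups overlapped. The change was -0.01 (95% interval -0.47 to 0.45, limma adjusted p = 0.965), and it was 0.52 on the values as deposited and 1.26 with equal S. cerevisiae medians. Relative to the median gene it lay 1.16 higher.

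SSA3 (YBL075C, chromosome II, 84499 to 86448) encodes the other Ssa protein induced under stress and in cells leaving growth. Its newly synthesized signal was 5.61 and 5.75 with rapamycin and 6.44 and 6.60 with DMSO. The groups did not overlap, and SSA3 fell 1.79-fold (-0.84, SE 0.22, limma adjusted p = 0.00139), close to the median gene. The rapamycin signals were near the mean signals of dim a-cell genes, such as STE6 (5.74) and MFA1 (5.25). Whether background signal narrowed this fall, or entered the SSA3 ratios and fraction differences given further on, was not tested. Steady-state RNA gave 6.59 and 7.10 with rapamycin, against 8.50 and 8.92 with DMSO. This was the largest fall among the 10 genes, 3.65-fold (-1.87, SE 0.22, limma adjusted p = 7.64e-09), and the 318th lowest change of 4359. With equal S. cerevisiae medians the SSA3 change in newly synthesized RNA was -0.018 and did not pass (adjusted p = 0.923).

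SSA2 (YLL024C, chromosome XII, 95566 to 97485), the constitutive Hsp70 gene, had signals of 12.48 and 12.43 with rapamycin and 12.88 and 13.02 with DMSO in newly synthesized RNA. It fell 1.41-fold (-0.50, SE 0.22, limma adjusted p = 0.0351), a direction that turned to 0.33 with equal S. cerevisiae medians. This call is fragile: the adjusted p lay between 0.0806 and 0.197 in the 4 fits that each lacked 1 newly synthesized array. In steady-state RNA SSA2 was at 12.54 and 12.47 with rapamycin and 13.07 and 13.50 with DMSO. The arrays again did not overlap, and the fall was 1.72-fold (-0.78, SE 0.22, limma adjusted p = 0.00118), with 0.485 under equal S. cerevisiae medians.

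SSA1 (YAL005C, chromosome I, 139503 to 141431) passed in neither fraction. Newly synthesized RNA gave 10.79 and 10.96 with rapamycin and 11.10 and 10.99 with DMSO, and steady-state RNA gave 11.00 and 10.84 with rapamycin and 11.10 and 11.60 with DMSO. The rapamycin arrays lay below the DMSO arrays each time, where 79.4% and 86.8% of all genes were called lower. The share of all genes whose arrays do not overlap is not given here. The changes were -0.17 (95% interval -0.61 to 0.28, limma adjusted p = 0.475) and -0.43 (-0.88 to 0.01, limma adjusted p = 0.0637), and with equal S. cerevisiae medians they were 0.66 and 0.84. The steady-state change passed without steady-state DMSO replicate 1 (-0.68, adjusted p = 0.00828), with the brighter S. pombe probe sets (-0.57, adjusted p = 0.0271), with an intensity trend (adjusted p = 0.0185) and under a scaling by a loess fit to the spike-in (-1.47, adjusted p = 2.33e-08). SSA1 and SSA2 have near-identical coding sequences, as do HSC82 and HSP82. The probe set names of all 10 genes end in "_at" without the "_s" or "_x" that Affymetrix gives to shared probes. Probe sequences were not used here, and cross-hybridisation between paralogs was not tested.

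SSE1 (YPL106C, chromosome XVI, 350194 to 352275), which encodes the Hsp110 exchange factor, lay near the median gene. Its signal in newly synthesized RNA was 11.72 and 11.70 with rapamycin and 12.37 and 12.54 with DMSO. It fell 1.67-fold (-0.74, SE 0.22, limma adjusted p = 0.00295), with 0.083 under equal S. cerevisiae medians. Steady-state RNA gave 11.77 and 11.94 with rapamycin and 12.81 and 13.23 with DMSO, a fall of 2.24-fold (-1.16, SE 0.22, limma adjusted p = 9.46e-06) that turned to 0.105 with equal S. cerevisiae medians. These changes lay 0.04 and 0.01 above the medians of all genes.

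HSP82 (YPL240C, chromosome XVI, 96496 to 98625), the inducible Hsp90 gene, fell in both fractions. Newly synthesized RNA gave 9.65 and 10.01 with rapamycin and 10.46 and 10.58 with DMSO (1.61-fold lower, limma adjusted p = 0.00615, and 0.136 on the log2 scale with equal S. cerevisiae medians). Steady-state RNA gave 10.59 and 10.74 with rapamycin, against 11.995 and 12.50 with DMSO. Here the groups were more than 1 log2 unit apart, and the change of -1.58 (SE 0.22, limma adjusted p = 1.03e-07, 2.99-fold lower) stood at -0.41 relative to the median gene. Without newly synthesized rapamycin replicate 1 or DMSO replicate 2, the newly synthesized change did not pass (adjusted p = 0.124 and 0.0617).

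HSC82 (YMR186W, chromosome XIII, 632355 to 634472), the constitutive Hsp90 gene, had smaller changes than HSP82, a difference tested only by the ratio given further on. Newly synthesized RNA gave 12.19 and 12.22 with rapamycin and 12.53 and 12.57 with DMSO. The arrays did not overlap, but the change of -0.35 did not pass (95% interval -0.78 to 0.09, limma adjusted p = 0.131); it was 0.033 on the values as deposited and 0.478 with equal S. cerevisiae medians. A fit on those 4 arrays alone passed it (adjusted p = 0.015). In steady-state RNA HSC82 was at 12.32 and 12.45 with rapamycin and 12.92 and 13.31 with DMSO, a 1.66-fold fall (-0.73, SE 0.22, limma adjusted p = 0.00218) that became 0.539 with equal S. cerevisiae medians and -2.14 under the loess scaling. That scaling also gave larger steady-state falls for SSA2 (-2.26), HSP82 (-2.56), SSE1 (-2.50), HSP104 (-1.26), SIS1 (-2.09) and YDJ1 (-2.07), but not for SSA3 (-1.75).

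HSP104 (YLL026W, chromosome XII, 88623 to 91349) had opposite signs in the 2 fractions. Its newly synthesized signal was 9.79 and 9.68 with rapamycin and 9.41 and 9.49 with DMSO. The rapamycin arrays were the higher, yet the change of 0.28 did not pass (95% interval -0.16 to 0.72, limma adjusted p = 0.218). It was the 102nd highest of 4359 changes, and it passed on the values as deposited (0.66, adjusted p = 0.00229), with equal S. cerevisiae medians (1.10, adjusted p = 0.00045) and in a fit on those 4 arrays alone (adjusted p = 0.0422). In steady-state RNA HSP104 was at 10.45 and 10.41 with rapamycin and 10.73 and 11.10 with DMSO. It fell there (-0.48, SE 0.21, limma adjusted p = 0.0357), which was 0.047 on the values as deposited and 0.787 with equal S. cerevisiae medians. That call was lost in 7 of the 8 fits on the remaining 7 arrays, with adjusted p-values of 0.0505 to 0.207 for HSP104.

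The J-domain protein genes fell in both fractions. YDJ1 (YNL064C, chromosome XIV, 505868 to 507097) had 10.28 and 10.25 with rapamycin and 11.17 and 11.25 with DMSO in newly synthesized RNA, the steepest fall of the 10 there (1.92-fold, limma adjusted p = 0.0003). In steady-state RNA YDJ1 had 10.84 and 10.95 with rapamycin and 11.79 and 12.06 with DMSO (2.04-fold lower, limma adjusted p = 3.97e-05, and 0.238 on the log2 scale with equal S. cerevisiae medians). The rapamycin arrays of YDJ1 lay below its DMSO arrays in both fractions. SIS1 (YNL007C, chromosome XIV, 618507 to 619565), an essential J-protein gene, had 10.63 and 10.53 with rapamycin and 11.37 and 11.19 with DMSO in newly synthesized RNA (1.63-fold lower, limma adjusted p = 0.00372, and 0.122 with equal S. cerevisiae medians). In steady-state RNA SIS1 had 11.59 and 11.65 with rapamycin and 12.47 and 12.64 with DMSO (1.92-fold lower, limma adjusted p = 0.00013, and 0.331 with equal S. cerevisiae medians). Without newly synthesized DMSO replicate 1 the newly synthesized change of SIS1 did not pass (adjusted p = 0.0587), nor did that of SSE1 without replicate 2 (adjusted p = 0.0532).

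**Figure D2:**
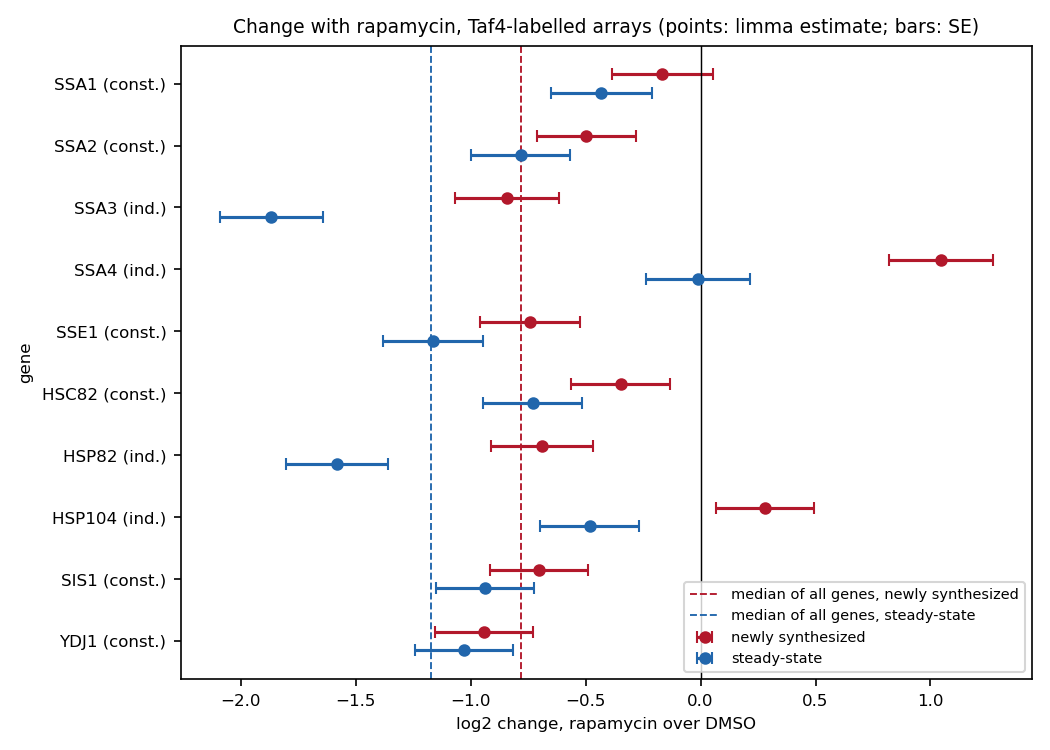
Change with rapamycin (log2, rapamycin over DMSO, horizontal axis) of the 10 genes in newly synthesized and steady-state RNA (points, limma estimates; bars, SE; n = 2 arrays per group). The dashed lines are the medians of all 4359 genes, -0.78 and -1.17. SSA4 at 1.05 in newly synthesized RNA stands apart, and the 4 inducible genes spread from -1.87 to -0.01 in steady-state RNA.

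On the S. pombe scale the inducible genes had no common direction in newly synthesized RNA. Their steady-state changes, and those of the constitutive genes in both fractions, were all below 0. Among all genes 79.4% and 86.8% were called lower in newly synthesized and steady-state RNA. Changes of the 4 inducible genes ran from -0.84 to 1.05 (median -0.20) in newly synthesized RNA and from -1.87 to -0.01 (median -1.03) in steady-state RNA. Those of the 6 constitutive genes ran from -0.94 to -0.17 (median -0.60) and from -1.16 to -0.43 (median -0.86). On this scale the 6 constitutive genes were thus narrower in range than the 4 inducible ones in both fractions. The loess scaling changed the order in steady-state RNA. There SSA2, HSC82, SSE1, SIS1 and YDJ1 fell more than SSA3, and SSA1 fell less.

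The ratio of 2 paralogs within an array does not depend on the shift between arrays, and a ratio shows unequal change, not which gene moved. The zero of such a ratio has no meaning between probe sets, so its change with rapamycin is given. The log2 ratio of SSA4 to SSA2 was -3.67 and -3.74 with rapamycin and -5.24 and -5.25 with DMSO in newly synthesized RNA. Steady-state RNA gave -3.34 and -3.12 with rapamycin and -4.13 and -3.87 with DMSO. The ratio was higher in each rapamycin array than in each DMSO array of its fraction, by 1.54 and 0.77. SSA3 against SSA2 went the other way, with -6.87 and -6.68 with rapamycin and -6.45 and -6.42 with DMSO in newly synthesized RNA. Steady-state RNA gave -5.94 and -5.37 with rapamycin, against -4.57 and -4.58 with DMSO. The differences were -0.34 and -1.08, but over both fractions the value of -0.71 became 0.017 under a scaling that depends on signal level (a loess fit to the spike-in).

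HSP82 against HSC82 gave -2.53 and -2.21 with rapamycin and -2.07 and -1.99 with DMSO in newly synthesized RNA. In steady-state RNA it gave -1.73 and -1.71 with rapamycin and -0.93 and -0.81 with DMSO. The inducible Hsp90 gene was thus lower relative to the constitutive one in every rapamycin array, by 1.27-fold and 1.80-fold, and by -0.42 (log2, both fractions) after the loess scaling. SSA1 against SSA2 was higher by 0.33 and 0.35. Against SSA1, the ratio of SSA4 was 1.21 and 0.42 higher and that of SSA3 differed by -0.68 and -1.43. For each of the 6 pairs an exact permutation test, two-sided, gave p = 0.0556 over 36 arrangements (0.0556 adjusted over the 6 pairs). This is the smallest value that test allows. It permuted rapamycin labels in each fraction separately, which counts the 2 fractions as independent. The labelled RNA was drawn from the total RNA, so they may not be, and the value may be too small. Within 1 fraction the exact permutation test has 6 arrangements, and its smallest p is 0.333.

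**Figure D3:**
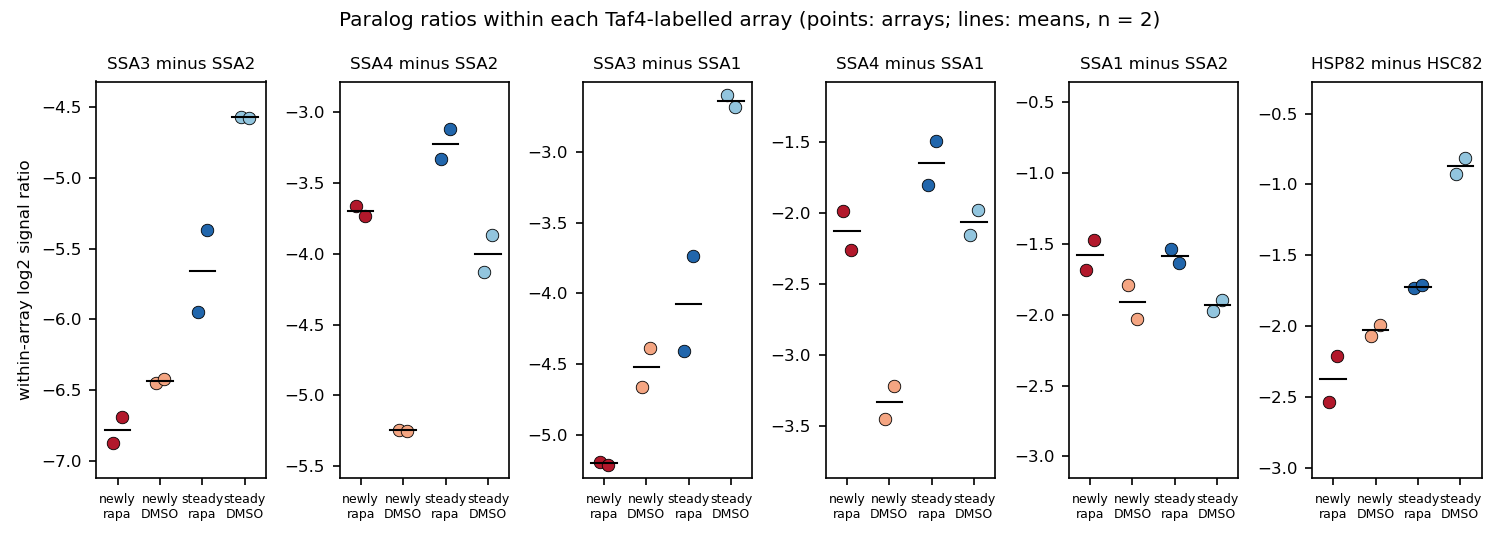
Log2 signal ratio of 2 paralogs within each Taf4-labelled array (vertical axis; each panel spans 2.8 log2 units) by group (rapa, rapamycin). Points are arrays and lines means (n = 2). SSA4 against SSA2 and against SSA1 is higher with rapamycin than with DMSO in both fractions, while SSA3 against both and HSP82 against HSC82 are lower.

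A test of the difference asks whether the change in newly synthesized RNA departed from that in steady-state RNA. The 2 changes share no arrays, though the labelled RNA was drawn from the total RNA. No member passed by limma, against 1.33% of all genes, and 4 of the 10 had an unadjusted p under 0.05, as did 1122 of all 4359 genes. These 4 were the inducible genes: SSA4 (1.06, SE 0.32, adjusted p = 0.0688), SSA3 (1.02, SE 0.32, adjusted p = 0.0708), HSP82 (0.89, SE 0.32, adjusted p = 0.101) and HSP104 (0.76, SE 0.30, adjusted p = 0.128). All are positive, so their newly synthesized change was the higher of the 2, and the median over all genes was 0.39. Outside the 10 genes, SSE2, the inducible copy of SSE1, was near that median at 0.43. Of the small heat shock genes HSP26 was at -1.34 and HSP42 at 1.19. The constitutive genes lay between 0.09 and 0.42, and with equal S. cerevisiae medians all 6 were below 0. This split by class depends on the scaling. Under the loess scaling all 10 genes passed as higher, beside a median of 0.779 over all genes. The difference was then larger for each of the 6 constitutive genes than for SSA3. The median over all genes itself moved with the steady-state arrays. It was 0.556 without steady-state DMSO replicate 1 and 0.228 without replicate 2. Without steady-state rapamycin replicate 1 it was 0.22, and without replicate 2 it was 0.554.

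**Figure D4:**
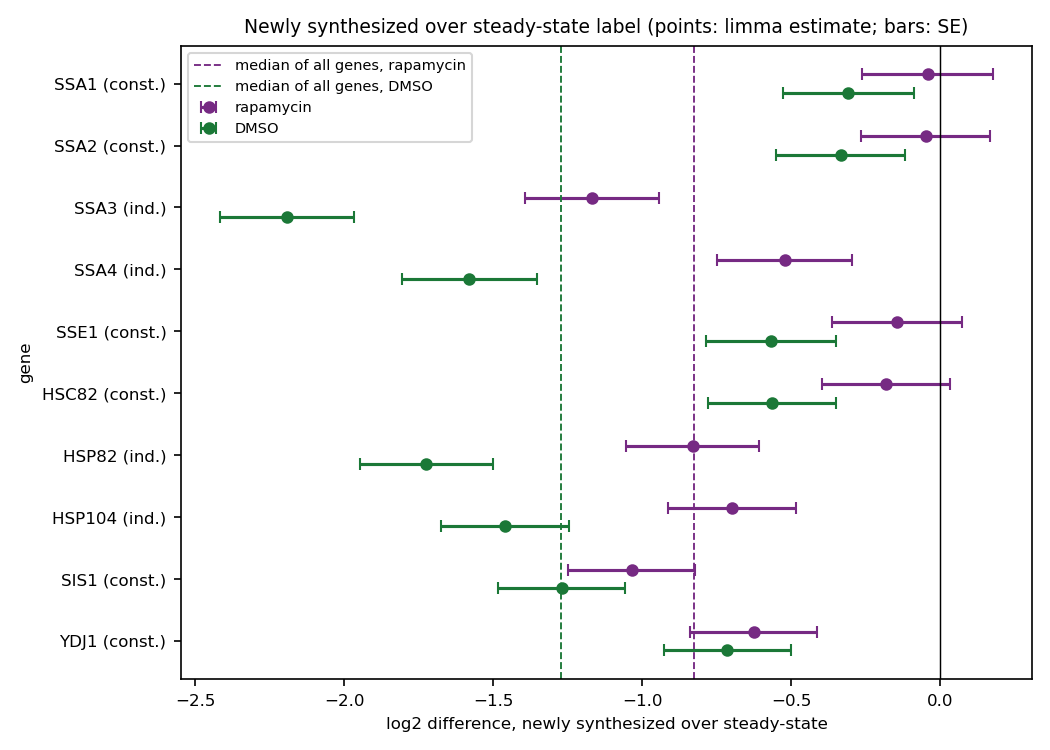
Newly synthesized over steady-state signal (log2 difference, horizontal axis) of the 10 genes with rapamycin and with DMSO (points, limma estimates; bars, SE; n = 2 arrays per group). Dashed lines are the medians of all genes, -0.83 and -1.27. With DMSO the 4 inducible genes, from -2.19 to -1.46, lie below that median and SSA1 and SSA2 well above it.

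The level of each gene also differed between the fraction labels. With rapamycin 6 of the 10 genes were lower in newly synthesized than in steady-state RNA, against 71.5% of all genes. With DMSO 8 were lower, against 83.1%. Under DMSO the differences were -2.19 for SSA3, -1.72 for HSP82, -1.58 for SSA4 and -1.46 for HSP104 (SE 0.21 to 0.23, limma adjusted p between 3.42e-10 and 1.48e-07). SSA1 (-0.31, adjusted p = 0.186) and SSA2 (-0.33, adjusted p = 0.146) did not pass. The 4 inducible genes thus lay below the median gene (-1.27) and 5 of the 6 constitutive ones above it, SIS1 being at it (-1.27). Stress genes outside the 10 did not all share this. SSE2, the inducible copy of SSE1, was at -1.11 and the small heat shock gene HSP26 at 2.40, both above that median. HSP42, also a small heat shock gene, was below it at -1.39. With equal S. cerevisiae medians the 6 constitutive genes were above 0 (0.105 for SIS1 to 1.07 for SSA1) and the 4 inducible genes below it. Under the loess scaling all 10 were called lower with DMSO, beside 4157 of all 4359 genes. Under rapamycin SSA3 had the lowest difference (-1.17, SE 0.22, limma adjusted p = 2.99e-05), and SIS1 (-1.04), HSP82 (-0.83), HSP104 (-0.70), YDJ1 (-0.63) and SSA4 (-0.52) followed. SSA1 (-0.04), SSA2 (-0.05), SSE1 (-0.15) and HSC82 (-0.18) did not pass. Since copies of the same scans carry the other fraction label under Taf5 titles, the sign of these differences rests on the Taf4 titles.

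In mean signal, with S. pombe medians equal, every one of the 10 genes was highest in steady-state RNA with DMSO. As deposited, SSA4 and HSP104 were instead higher with rapamycin in steady-state RNA (by 0.518 and 0.047), and SSA1 and SSA2 higher in newly synthesized than in steady-state RNA with DMSO (by 0.122 and 0.096). On the S. pombe scale the order was as follows. SSA1, SSA2, HSC82, SSE1 and YDJ1 then ran from newly synthesized RNA with DMSO through steady-state RNA with rapamycin to newly synthesized RNA with rapamycin. For SSA3, HSP82 and SIS1 the 2 middle groups were in the opposite order, and SSA4 and HSP104 were lowest in newly synthesized RNA with DMSO. Arrays of neighbouring groups overlapped for SSA1 (all but the highest group), SSA2 (the 2 rapamycin groups), SSA3 (the 2 middle groups) and SSA4 (the 2 steady-state groups). The distance between the highest and lowest group mean was 3.03 log2 units for SSA3 and 2.41 for HSP82, and 0.48 for SSA1.

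The S. pombe spike-in has chaperone genes of its own, and its cells are not named as treated. Each array was shifted to an equal S. pombe median, so S. pombe changes centre near 0 by construction. Their medians were -0.027 in newly synthesized and 0.055 in steady-state RNA. They cannot check that shift or the common fall of S. cerevisiae genes. Of 10 listed S. pombe genes 6 were found by name and tested: ssa1, ssa2, hsp90, pss1 (an Hsp110), mas5 (a J-protein) and sti1 (an Hsp90 co-chaperone). In newly synthesized RNA none passed by limma, and their changes ran from -0.29 for ssa2 to -0.01 for ssa1. Of all 1396 S. pombe probe sets tested 0 passed there by limma, with 45 at an unadjusted p under 0.05. In steady-state RNA pss1 was 1.71-fold higher (limma adjusted p = 0.00167) and mas5 1.31-fold higher (adjusted p = 0.0409). There 306 S. pombe probe sets were lower and 452 higher, so the steady-state changes above rest on a spike-in that itself differed. For the difference of the 2 changes 339 were lower and 117 higher, with pss1 at -0.887 (limma adjusted p = 0.0107). In newly synthesized against steady-state RNA 362 were lower and 584 higher with DMSO, and 53 and 93 with rapamycin. With DMSO pss1 was at 1.325 and mas5 at 0.682 there. The part of the spike-in in all these results was not tested.

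**Figure D5:**
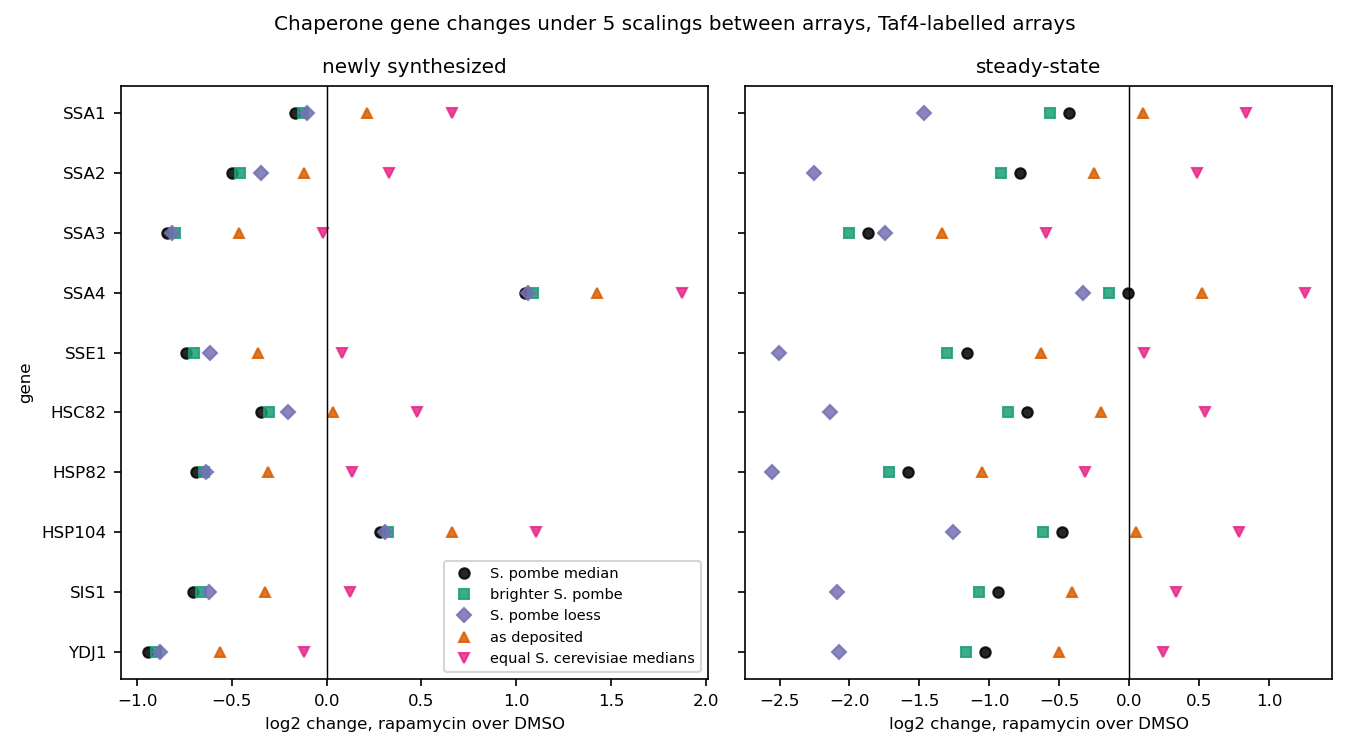
Change with rapamycin (log2, rapamycin over DMSO, horizontal axis) of the 10 genes under 5 scalings between arrays, for newly synthesized and steady-state RNA. SSA4 in newly synthesized RNA is above 0 under each, whereas with equal S. cerevisiae medians SSA2, HSC82, SSE1, SIS1 and SSA1 lie above 0 in both fractions and the loess scaling lowers SSA2 to -2.26 and SSE1 to -2.50 in steady-state RNA.

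The other chaperone genes were grouped in lists, and most fell, as did 79.4% and 86.8% of all genes in newly synthesized and steady-state RNA. Of 7 other genes of the Hsp70 system, 6 fell in newly synthesized RNA and 7 in steady-state RNA, with medians of -0.55 and -1.03 beside -0.78 and -1.17 for all genes. The nucleotide exchange factor gene FES1 fell 1.87-fold and 2.27-fold (-0.078, adjusted p = 0.688, and 0.088 with equal S. cerevisiae medians), and SNL1, of a membrane-bound exchange factor, 2.17-fold and 2.04-fold (-0.296, adjusted p = 0.127, and 0.24 with those medians). SSE2, the inducible copy of SSE1, was picked after its values were seen. It had -0.29 in newly synthesized RNA (adjusted p = 0.236) and fell 1.66-fold in steady-state RNA, with 0.532 and 0.541 under equal S. cerevisiae medians.

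Of 12 Hsp90 co-chaperone genes 10 and 11 fell in the 2 fractions, with medians of -0.88 and -1.39. CNS1, which encodes a co-chaperone that binds Hsp90 and Hsp70, fell 2.64-fold in newly synthesized RNA, and TAH1, of the R2TP complex, by 1.85 on the log2 scale in steady-state RNA. Of 9 other J-protein genes 7 were tested, of which 6 and 7 fell (medians -0.96 and -1.32), and XDJ1 fell 2.95-fold and 4.46-fold. All 8 genes of the TRiC chaperonin, which folds actin and tubulin, fell in both fractions (medians -0.69 and -1.13), CCT6 by 2.15-fold in newly synthesized and TCP1 by 2.96-fold in steady-state RNA.

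Chaperones of organelles were also counted, beside 79.4% and 86.8% lower among all genes. Of 8 mitochondrial chaperone genes 7 were tested, of which 5 and 7 fell (medians -0.61 and -0.93), with MDJ1, a mitochondrial J-protein gene, 2.39-fold and 3.21-fold lower. Of 8 genes of the endoplasmic reticulum 5 and 8 fell (medians -0.69 and -1.13), with the calnexin gene CNE1 1.99-fold and 2.77-fold lower. With equal S. cerevisiae medians CNS1 (-0.574 in newly synthesized RNA), TAH1 (-0.58 in steady-state RNA), XDJ1 (-0.736 and -0.888) and MDJ1 (-0.434 and -0.414) still passed in the fractions named. The calls of CCT6 in newly synthesized RNA (-0.281, adjusted p = 0.0995), TCP1 in steady-state RNA (-0.295, adjusted p = 0.0559) and CNE1 in both (-0.169 and -0.202, adjusted p = 0.325 and 0.184) were lost.

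The small heat shock protein genes, whose products hold unfolded proteins without ATP, went the other way in newly synthesized RNA. In steady-state RNA only HSP26 did. HSP26 had 11.28 and 11.11 with rapamycin and 9.60 and 9.64 with DMSO in newly synthesized RNA. In steady-state RNA it had 10.44 and 9.82 with rapamycin and 6.999 and 7.43 with DMSO. It rose in both fractions. HSP42 had 8.24 and 8.27 with rapamycin and 7.48 and 7.47 with DMSO in newly synthesized RNA, a 1.72-fold rise (limma adjusted p = 0.00251). In steady-state RNA it had 8.35 and 8.57 with rapamycin and 8.55 and 9.18 with DMSO, with a change of -0.41 that did not pass (adjusted p = 0.083) and was 0.118 as deposited and 0.858 with equal S. cerevisiae medians. The 2 changes of HSP42 differed by 1.19, newly synthesized minus steady-state (SE 0.32, limma adjusted p = 0.0463). Those of HSP26 differed in the opposite direction, by -1.34 (SE 0.32, limma adjusted p = 0.0341).

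Of the regulators, HSF1 mRNA had a change of -0.37 in newly synthesized RNA that did not pass (adjusted p = 0.128) and fell 2.17-fold in steady-state RNA (limma adjusted p = 2.92e-05), with 0.459 and 0.152 under equal S. cerevisiae medians. MSN4 had -0.36 (adjusted p = 0.146) and fell 2.39-fold, with 0.467 and 0.011 under those medians. MSN2 fell 1.39-fold and 1.44-fold (adjusted p = 0.0461 and 0.0254), with 0.353 and 0.746 under those medians. Its newly synthesized call was lost on the values as deposited (-0.092, adjusted p = 0.621) and without newly synthesized DMSO replicate 2 (-0.267, adjusted p = 0.419).

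Likeness of pattern was measured as the Euclidean distance between 2 genes over the 8 arrays, each gene centred on its own mean. The 3 genes nearest to SSA4 were GSY1, a glycogen synthase gene (0.456), TPS2, of trehalose synthesis (0.533), and GRE2, a reductase gene (0.604), where the median gene was 2.38 away. GSY1 rose 1.95-fold with rapamycin in newly synthesized RNA and had -0.02 in steady-state RNA, where it was 0.505 as deposited and 1.24 with equal S. cerevisiae medians. Nearest to SSA2 were TUB1, an alpha-tubulin gene (0.166), SSB1, the Hsp70 gene of the ribosome-associated chaperone (0.169), and SUB2, of mRNA export (0.21), against 1.57 for the median gene. SSB1 fell 1.47-fold in newly synthesized and 1.80-fold in steady-state RNA, while with equal S. cerevisiae medians it was above 0 in both (0.273 and 0.421). These nearest genes were picked on the same 8 arrays. That their changes resemble those of SSA4 and SSA2 therefore follows from the choice.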

How the data were processed

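The authors deposited intensity values on a linear scale for 10928 probe sets in 16 columns, 8 of them used here. Per the submitters' processing notes they came from Affymetrix Expression Console 1.4.1; the summary algorithm is not given in the sources used here, nor is any background correction. The 2% trimmed mean of the Taf4-titled columns, over both species, was 500.2 to 500.4. Platform annotation gave 1 symbol to 7244 probe sets, of which 5498 matched S. cerevisiae genes of assembly R64 by Entrez identifier and 1746 carried S. pombe names. From these values log2 intensities were computed without a pseudocount and shifted to equal S. pombe medians over those 1746. The probe set of highest mean stood for a gene. Four-group models were fitted to the 8 columns with limma 3.58.1 in R 4.3.3 (lmFit, eBayes, two-sided) for 5 contrasts, after a test on simulated data. Permutation tests were enumerated in Python 3.11.15. The number of arrays limits the precision. The 10 genes and the lists were chosen with earlier results of these data known. The rule for named genes took all members, of each list up to 2 called genes of largest change per fraction and the brightest gene, and the 3 genes nearest in pattern to SSA4 and to SSA2; of the lists the text gives the first called gene per fraction, all small heat shock genes and all regulators. SSE2 and, where they did not pass, the regulators lie outside that rule and were added after their values were seen. Promoter, protein and probe sequences were not used here. The alternatives were other scalings, filters, variance priors, sample sets, a block for the replicate number, and fits that each lacked 1 array.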

Additional observations from a re-analysis of the deposited data

How the results depend on the processing

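The number of arrays and the spike-in limit these results: another scaling gave the median gene a change of -0.753 to 0.046 in place of -0.78 in newly synthesized RNA, and of -1.54 to 0.094 in place of -1.17 in steady-state RNA. With equal S. cerevisiae medians 4 members were called in newly synthesized RNA, all higher. In the difference between the 2 changes 0 members were called. On the values as deposited 1 was called, beside 22 of all 4359 genes lower and 88 higher. With the brighter S. pombe probe sets 2 were called (4 genes lower and 265 higher) and with an intensity trend 2 (17 and 193). Under the loess scaling all 10 members were called, beside 6 genes lower and 2003 higher. In newly synthesized against steady-state RNA with DMSO, 5 members were called on the values as deposited in place of 8. Among all genes 3194 were then lower and 363 higher, in place of 3624 and 112. Whether replicate numbers pair the arrays is not settled: the labels do not tie a number to a culture, and the deviations of same-numbered arrays correlated at 0.105 to 0.175 in 4 pairs of groups and at -0.019 and 0.057 in the other 2. With the replicate block the members called numbered 4 in place of 0 for the difference between the 2 changes (SSA3, SSA4, HSP82 and HSP104, adjusted p = 0.007 to 0.0263; among all genes 38 were lower and 1004 higher, against 6 and 52 without it), 9 in place of 8 for steady-state RNA (SSA1 added, adjusted p = 0.0246), 7 for newly synthesized RNA as without it, and 6 and 8 for the fraction differences with rapamycin and DMSO, as without it. Leaving out 1 array at a time gave 4 to 7 members called in newly synthesized RNA (4 without newly synthesized DMSO replicate 2), 0 to 4 for the difference between the changes and 3 to 6 for the fraction difference with rapamycin (3 without either newly synthesized rapamycin array). It also gave -0.353 to 0.331 for SSA4 and -0.21 to 0.162 for GSY1 in steady-state RNA, -0.049 to 0.226 for the difference of changes of YDJ1 and -0.125 to 0.04 for the fraction difference of SSA1 with rapamycin.

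Many directions turned with equal S. cerevisiae medians, which remove a common fall by construction. In newly synthesized RNA the changes were then above 0 for SSA1 (0.659), SSA2 (0.328), HSC82 (0.478), HSP82 (0.136), SSE1 (0.083), SIS1 (0.122), HSF1 (0.459), MSN2 (0.353), MSN4 (0.467), SSB1 (0.273) and SSE2 (0.532). In steady-state RNA they were above 0 for SSA1 (0.836), SSA2 (0.485), SSA4 (1.258), HSC82 (0.539), SSE1 (0.105), HSP104 (0.787), SIS1 (0.331), YDJ1 (0.238), FES1 (0.088), HSF1 (0.152), HSP42 (0.858), MSN2 (0.746), MSN4 (0.011), SNL1 (0.24), SSB1 (0.421), GSY1 (1.244) and SSE2 (0.541). The difference of the 2 changes turned for SSA1 (-0.177), SSA2 (-0.158), HSC82 (-0.061), SSE1 (-0.022), SIS1 (-0.209) and YDJ1 (-0.355). Newly synthesized against steady-state RNA turned with rapamycin for SSA1 (0.89), SSA2 (0.884), SSA4 (0.41), HSC82 (0.75), HSP82 (0.101), SSE1 (0.787), HSP104 (0.234) and YDJ1 (0.306), and with DMSO for SSA1 (1.067), SSA2 (1.041), HSC82 (0.811), SSE1 (0.809), SIS1 (0.105) and YDJ1 (0.661). On the values as deposited the changes turned for SSA1 (0.214), HSC82 (0.033), HSF1 (0.014), MSN4 (0.022) and SSE2 (0.087) in newly synthesized RNA, for SSA1 (0.096), SSA4 (0.518), HSP104 (0.047), HSP42 (0.118), GSY1 (0.505) and MSN2 (0.007) in steady-state RNA, and for the difference of changes of YDJ1 (-0.061). The fraction differences turned there with rapamycin for SSA1 (0.239), SSA2 (0.233), HSC82 (0.1) and SSE1 (0.136) and with DMSO for SSA1 (0.122) and SSA2 (0.096). The loess scaling turned the ratio of SSA3 to SSA2 (0.017, exact permutation p = 0.889); for the loess results the cause was not tested. No fit on 4 arrays exists for the difference of changes, which needs all 8.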

Other observations

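Of the Taf5-titled columns, 2 equal no Taf4-titled one, and both fall outside the comparisons above. On the same S. pombe scale the array titled newly synthesized with rapamycin, replicate 2, had 7.31 for SSA4, 10.11 for SSA1, 12.04 for SSA2, 11.82 for HSC82 and 11.59 for SSE1, each below the lowest of the 8 Taf4-titled arrays (7.64, 10.79, 12.43, 12.19 and 11.70). Its log2 ratio of SSA4 to SSA2 was -4.73, and that of HSP82 to HSC82 -1.65. For SSA4 to SSA2 the Taf4-titled arrays had -3.74 to -3.12 with rapamycin and -5.25 to -3.87 with DMSO. The value of -4.73 thus lay outside the rapamycin range, although its title names rapamycin. It also lay between the DMSO arrays of newly synthesized RNA (-5.24 and -5.25) and of steady-state RNA (-4.13 and -3.87), within neither group. For HSP82 to HSC82 the Taf4-titled arrays had -2.53 to -1.71 with rapamycin and -2.07 to -0.81 with DMSO. The array titled steady-state with DMSO, replicate 2, had 8.06 for SSA4, 7.19 for SSA3 and 10.32 for HSP104, all within the range of the Taf4-titled arrays. Its ratios were -5.06 for SSA4 to SSA2 and -2.10 for HSP82 to HSC82. Across S. pombe probe sets the first of these arrays correlated at Spearman's rho = 0.883 with the array titled as its fellow replicate, which is a copy of the Taf4-titled steady-state rapamycin replicate 1, where the Taf4-titled replicate pairs gave 0.977 to 0.991.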
